A study of Mus musculus with 2 samples.

Results

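A set of 10 transcription factors that drive or mark the mesenchymal state, out of 17408 genes in the expression table, were followed across the cell states of mouse fibroblasts at day 16 of reprogramming to pluripotency. The members were fixed by name and were Snai1, Snai2, Twist1, Twist2, Zeb1, Zeb2, Prrx1, Tcf4, Runx1 and Runx2, with Col1a1 as a mesenchymal reference and Cdh1 as an epithelial one. All 10 were in the table, and 7 had a mean of at least 0.1 UMIs (counted transcript molecules) per 10000 UMIs of a cell over all cells. Snai1, Snai2 and Twist2 fell short of that level.

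The data were 2 droplet libraries of unsorted cells, called libraries 1 and 2 here, with the same labels: day 16, mouse embryonic fibroblasts (MEFs) carrying STEMCCA, a doxycycline-inducible cassette of Oct4, Sox2, Klf4 and c-Myc, grown in mouse embryonic stem cell medium with ascorbic acid. The study worked with independent STEMCCA mouse systems, and the labels do not say which of them each library came from. No library lacked the cassette or the induction, so the comparisons of cell classes and states below are between cells of the same library. The 2 libraries are also set beside each other, as a description. Library 1 held 3109 cells and 54145377 UMIs (median 15625 per cell) and library 2 held 3914 cells and 64654306 UMIs (median 14292); 12 cell barcodes occurred in both, and no doublets were removed here.

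A reprogramming fibroblast passes through a mesenchymal-to-epithelial transition before it becomes pluripotent. SNAIL and ZEB proteins are zinc-finger repressors that sit on E-boxes of epithelial genes such as Cdh1, TWIST proteins are basic helix-loop-helix factors that pair with E proteins, and TCF4 is itself an E protein. PRRX1 is a paired-type homeobox factor of limb and connective-tissue mesenchyme, RUNX1 is best known from blood formation and is also made by fibroblasts, and RUNX2 drives the bone and hypertrophic cartilage programme.

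Cells were grouped into 14 states on genes other than the members, both references and every gene of the lists used below, and states were numbered from 0 by size. The 10 states numbered 0 to 9 held at least 30 cells in both libraries. State 7 was pluripotent-like by its markers, with 10 of 11 fixed markers raised 2-fold or more and Dppa5a, Pou5f1 and Utf1 in the lead, and it held 146 cells of library 1 and 391 of library 2. State 9 was fibroblast-like (10 of 11 markers) and was led by Spp1, Mmp3 and Mmp13. State 6, led by Mylk, Sprr2k and Prss23, had 7 of 7 smooth muscle markers and 10 of 11 fibroblast markers and is called smooth muscle-like. State 1 was mitotic, and state 5 had 8 of 8 S-phase markers but more mitotic than S-phase markers among its 10 leading genes, and so stayed without a type name. State 4 was led by Perp, Krt19 and Itgb4, with 2 of 11 epithelial markers, and state 10, with 63 and 4 cells, was epithelial-like (8 of 11, led by Krt8, Cldn7 and Rab25). The remaining large states had no type name and are given by their lead genes: Acsbg1 (state 0), Thbd (state 2), Rarres2 (state 3) and Mmp11 (state 8).

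All 7 members that could be tested were lower in pluripotent-like cells than in all other cells, and 6 of the 7 by at least 2-fold in the fit. The fit was limma on log2(mean level per 10000 + 0.1) with the library as a term, Benjamini-Hochberg adjusted over 7131 genes, and the added 0.1 understates the change of low genes. Of all genes tested 46.2% were lower by the same adjusted p, and 17.5% were lower by adjusted p and 2-fold, so the count by adjusted p alone is read against a large background. The median difference of all tested genes was -0.16 on this log2 scale. The minimum level is a mean over all cells, most of which are not pluripotent-like, so it favours genes that are high in the other cells.

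Prrx1 (chromosome 1, 163245119 to 163313710) stood at 0.0489 per 10000 in the pluripotent-like cells of library 1 and 0.0489 in those of library 2, against 1.26 and 1.16 in the other cells. The other cells were thus far above in both libraries, and the log2 difference was -3.14 (SE 0.090, limma adjusted p 1.7e-08). Its size was close to that of Col1a1 on the same scale, -3.21 (SE 0.10, limma adjusted p 2.3e-08). Runx1 (chromosome 16, 92601466 to 92826149) was at 0.0356 and 0.0402 in pluripotent-like cells and at 0.714 and 0.661 elsewhere, a log2 difference of -2.51 (SE 0.092, limma adjusted p 4.2e-08).

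Tcf4, on chromosome 18, was lower by less. Its level was 0.548 and 0.449 in pluripotent-like cells and 1.95 and 1.83 in other cells, with a log2 difference of -1.74 (SE 0.092, limma adjusted p 3.3e-07). Zeb1, also on chromosome 18, stood at 0.136 and 0.125 against 0.409 and 0.377, a log2 difference of -1.10 (SE 0.089, limma adjusted p 4.1e-06). Its paralogue Zeb2 (chromosome 2, 44983632 to 45117395) was far lower in pluripotent-like cells, at 0.0174 and 0.0116, and stood at 0.261 and 0.208 elsewhere. The Zeb2 log2 difference was -1.54 (SE 0.092, limma adjusted p 6.6e-07). Its antisense neighbour Zeb2os, at a mean of 0.00775 over all cells against 0.215 for Zeb2, overlaps its exons.

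Twist1 (chromosome 12, 33957671 to 33959829) was at 0.0315 and 0.0229 in pluripotent-like cells against 0.204 and 0.173, a log2 difference of -1.18 (limma adjusted p 2.6e-06). Runx2 (chromosome 17, 44495987 to 44814797) was at 0.0115 and 0.00961 against 0.125 and 0.116. At -0.99 (limma adjusted p 7.6e-06) it was the member just short of 2-fold on this scale, while on summed UMIs it was 9.59-fold and 10.4-fold lower. In no member did a pluripotent-like level reach the level of the other cells of either library.

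The 3 members under the minimum were counted in few molecules. Snai1 (chromosome 2, 167538195 to 167542814) had 2 and 8 UMIs in pluripotent-like cells and 248 and 199 in the others, Snai2 (chromosome 16, 14705852 to 14709385) had 2 and 9 against 439 and 292, and Twist2 (chromosome 1, 91801461 to 91848028) had 1 and 2 against 290 and 283. With no minimum level, a fit over all 17408 genes called all 10 members lower, against 25.6% of all genes. In that fit the log2 difference was -0.47 for Snai1 (limma adjusted p 0.021), -0.71 for Snai2 (limma adjusted p 0.036) and -0.64 for Twist2 (limma adjusted p 0.0087).

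Against fibroblast-like cells of state 9 alone, the 7 tested members were all lower by limma adjusted p and 2-fold, where 22.2% of all genes were. The log2 differences ran from -1.48 for Twist1 to -4.04 for Prrx1, with -2.48 for Tcf4 and -1.85 for Zeb1. Pluripotent-like cells were deeper (median 28768 and 26097 UMIs) than other cells (15214 and 13651), and within cells of 10000 to 30000 UMIs the same counts of 7 and 6 members were called. The shares of all genes called within that depth window are not given, so these 2 counts have no background beside them. States were formed from other genes of the same cells, so class and members are not independent readings of each cell, and p-values measure the spread between libraries only.

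The share of its level that each member kept in pluripotent-like cells separated the members further. The share is the summed level per 10000 in pluripotent-like cells over that in other cells of the same library, with an exact 95% interval that covers counting error only. Zeb1 kept 36.3% (27.4 to 47.1%) in library 1 and 37.0% (30.8 to 44.0%) in library 2. Tcf4 kept 32.4% (28.3 to 36.8%) and 26.7% (24.3 to 29.4%). Both were above Col1a1, which kept 9.42% (8.31 to 10.6%) and 10.1% (9.09 to 11.2%), with intervals that did not meet in either library.

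Prrx1 lay on the other side of Col1a1, with 4.27% (2.68 to 6.48%) and 5.04% (3.84 to 6.50%) kept. The intervals of the other 7 members met that of Col1a1 in at least 1 library. Runx1 kept 6.72% and 6.92%, Zeb2 7.01% and 5.97%, Runx2 10.4% and 9.66%, and Twist1 17.2% (9.37 to 29.0%) and 13.9% (8.87 to 20.8%). The rare members had wide intervals, with 9.52% (1.15 to 34.8%) and 21.1% (8.97 to 42.3%) for Snai1, 5.38% and 16.2% for Snai2, and 4.07% (0.103 to 22.9%) and 3.71% (0.446 to 13.5%) for Twist2. Free RNA from other cells keeps its genes in 1 ratio within a library, which is why Col1a1 is set beside each member. Its part in the remaining counts was not tested.

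**Figure D1:**
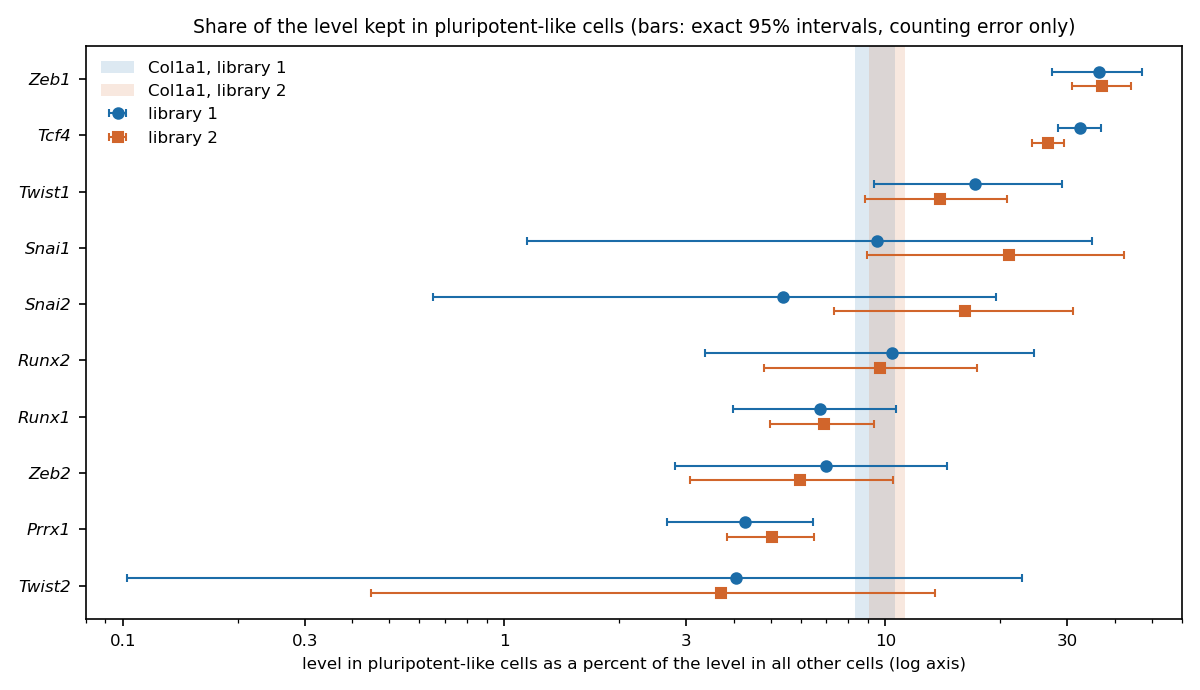
The horizontal axis (logarithmic) is the level in pluripotent-like cells as a percent of the level in all other cells of the same library, 1 row per transcription factor; circles are library 1, squares library 2, bars exact 95% intervals for counting error, and shaded bands the interval of Col1a1. Zeb1 (36.3% and 37.0%) and Tcf4 (32.4% and 26.7%) lie to the right of the Col1a1 bands, and Prrx1 (4.27% and 5.04%) to the left.

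The Tcf4 and Zeb1 molecules were also present in pluripotent-like cells without any Col1a1 UMI, 37 cells in library 1 and 211 in library 2. In those cells Tcf4 was at 0.547 (95% interval 0.411 to 0.713) and 0.377 (0.325 to 0.434) per 10000, and in pluripotent-like cells with Col1a1 UMIs at 0.568 (0.489 to 0.656) and 0.501 (0.442 to 0.565), so that the intervals met in library 1 and not in library 2. Zeb1 was at 0.101 (0.0485 to 0.186) and 0.119 (0.0907 to 0.153) without Col1a1 and at 0.148 and 0.141 with it. Prrx1 was at 0.0101 (0.000256 to 0.0564, 1 UMI) and 0.0317 (0.0181 to 0.0515) in cells without Col1a1 and at 0.0648 (0.0401 to 0.0990) and 0.0828 (0.0602 to 0.111) in cells with it, and its intervals too met in library 1 only. Differences between the genes in this were not tested. Cells without Col1a1 UMIs were shallower (median 25340 and 23683 UMIs) than those with them (29901 and 29389).

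Counted per cell, the factors were also sparse together in pluripotent-like cells. Each cell was thinned to 3000 UMIs, since the number detected depends on depth. Pluripotent-like cells then had a mean of 0.247 and 0.187 members with a UMI, other cells 1.19 and 1.10, and fibroblast-like cells 1.96 and 1.82. At least 1 member was seen in 21.2% (exact 95% interval 14.9 to 28.8%) and 17.1% (13.5 to 21.2%) of the pluripotent-like class, against 70.8% and 68.2% of the remaining cells.

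Across the 10 larger states no single state carried the highest level of all members. By the mean of both libraries 4 members were highest in the fibroblast-like state 9, 4 in the smooth muscle-like state 6, Tcf4 in state 2 and Twist1 in state 8. The pluripotent-like state had the lowest mean for all 10 members, and in each library taken alone the exception was Snai2 in library 2, where state 0 was lower. These levels describe clusters of the same cells and carry no test.

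**Figure D2:**
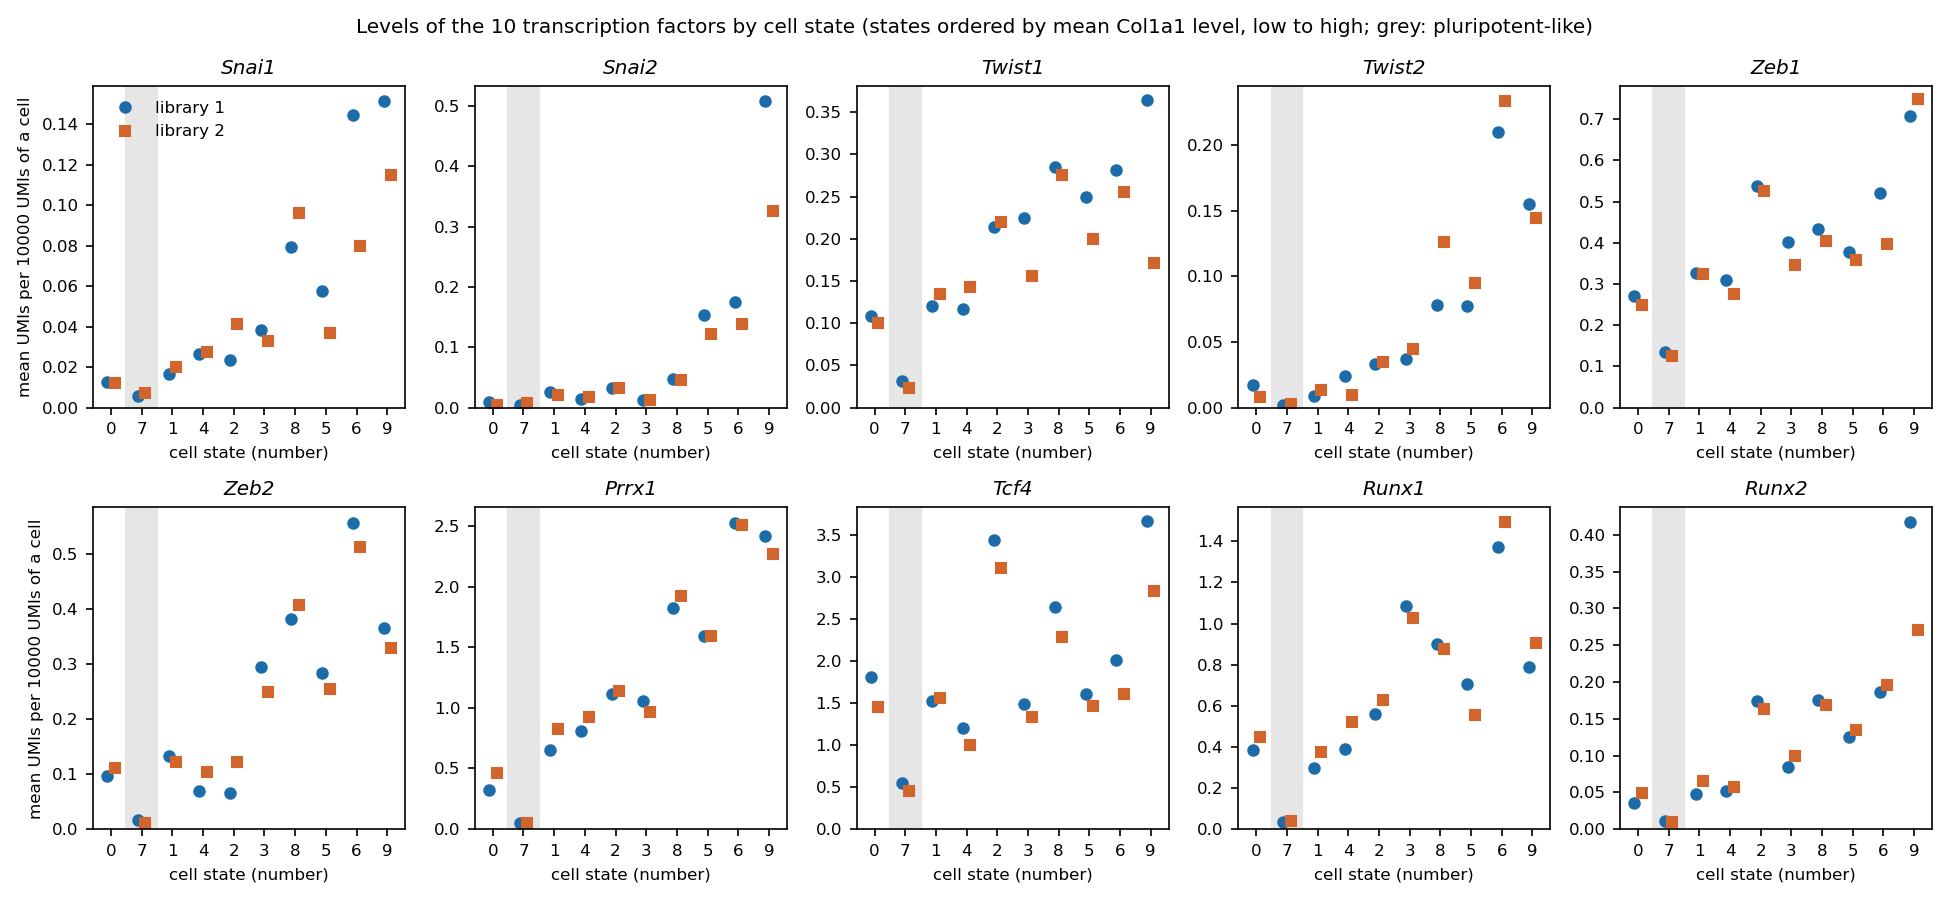
Each panel gives 1 transcription factor; the vertical axis is its mean level in UMIs per 10000 UMIs of a cell, starting at 0, and the horizontal axis is the cell state by number, ordered from the lowest to the highest mean Col1a1 level; circles are library 1, squares library 2, and the pluripotent-like state 7 is shaded. Snai2, Zeb1 and Runx2 peak in state 9, Twist2, Zeb2, Prrx1 and Runx1 in state 6, and Tcf4 is about as high in state 2 (3.43 and 3.11) as in state 9 (3.66 and 2.84).

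Among the SNAIL genes, Snai2 had a steep peak in fibroblast-like cells. It was at 0.508 and 0.325 per 10000 in state 9. Next came the smooth muscle-like state at 0.175 and 0.139 and state 5 at 0.154 and 0.122. Every other large state was below 0.05 in both libraries. State 9 was apart from its neighbour in both libraries, whereas states 6 and 5 overlapped. Snai1 was also highest in state 9 (0.152 and 0.115), but its level in state 6 (0.145 and 0.0796) overlapped with it, and the Mmp11 state 8 followed at 0.0794 and 0.0961.

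The TWIST genes differed from each other in spread. Twist1 had close means over both libraries in states 8, 6 and 9, at 0.280, 0.268 and 0.268. By library it was at 0.285 and 0.276 in state 8 and at 0.281 and 0.256 in state 6. In state 9 the libraries differed more, at 0.364 and 0.172. Of its neighbouring pairs of states 6 overlapped between libraries and 3 did not. Twist2 was concentrated in the smooth muscle-like state at 0.210 and 0.233, followed by state 9 at 0.155 and 0.145, and was at 0.00899 and 0.0131 in mitotic cells. Whether its antisense neighbour adds to it was not tested, but that gene, Gm29100, had a mean of only 0.00023 over all cells.

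The ZEB genes had different orders of states. Zeb1 was highest in state 9 (0.708 and 0.749) and next in the Thbd state 2 (0.538 and 0.527), and no other large state reached the level of state 2 in either library. Zeb2 was highest in state 6 (0.557 and 0.512), next in state 8 (0.381 and 0.406), and low in state 2 (0.0660 and 0.122). State 2 was thus second for Zeb1 and eighth of 10 for Zeb2.

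Prrx1 and Runx1 shared their highest state. Prrx1 was at 2.53 and 2.51 in state 6, 2.42 and 2.27 in state 9, 1.83 and 1.92 in state 8 and 0.322 and 0.461 in state 0, and 8 of its 9 neighbouring pairs of states did not overlap. Runx1 was at 1.37 and 1.49 in state 6 and next at 1.09 and 1.03 in the Rarres2 state 3. State 3, led by Rarres2, Cyp11a1 and Sostdc1, was only sixth for Prrx1 (1.06 and 0.963).

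Tcf4 followed another order. Its levels in states 2 and 9 overlapped, state 8 was next at 2.64 and 2.29, and the 5 states from the fourth to the eighth place lay between 1.34 and 2.01 with 4 overlapping neighbours. Runx2 was highest in state 9 at 0.417 and 0.270, and states 6, 8 and 2 followed between 0.163 and 0.196. State 9 was also the state with the most Mmp13 (4.26 and 3.20 per 10000) and Spp1 (87.2 and 80.0), both genes that RUNX2 is known to activate. Mmp13 was at 0.0383 and 0.0151 in state 6, and Col10a1, a hypertrophic cartilage collagen, was at 2.55 and 1.08 in state 9 and at 0.00136 and 0 in state 6. The antisense gene Runx2os1 overlaps exons of Runx2 and had a mean of 0.0298 over all cells against 0.111 for Runx2, and the sources do not state how the counting treated strand.

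The balance within each paralogue pair differed between states, and depth cancels in such a share. Zeb2 made up 53.7% (exact 95% interval 49.4 to 58.0%) and 58.5% (52.6 to 64.2%) of the UMIs of the ZEB pair in smooth muscle-like cells. It made up 10.8% (6.73 to 16.2%) and 18.7% (15.2 to 22.5%) in state 2, and 10.8% (4.44 to 20.9%) and 8.16% (4.29 to 13.8%) in pluripotent-like cells. Twist2 was 43.4% and 48.3% of its pair in state 6 and 6.78% and 9.21% in mitotic cells.

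Snai2 was 75.5% (69.7 to 80.7%) and 74.3% (64.6 to 82.4%) of the SNAIL pair in fibroblast-like cells and 23.7% (11.4 to 40.2%) and 33.3% (11.8 to 61.6%) in state 3. The intervals of those states did not meet in either library. Runx2 was 33.5% and 23.2% of the RUNX pair in state 9 and 7.48% and 8.95% in state 3. In pluripotent-like cells the Runx2 share was 21.7% (7.46 to 43.7%) and 20.4% (10.6 to 33.5%), within the range of the other larger states.

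**Figure D3:**
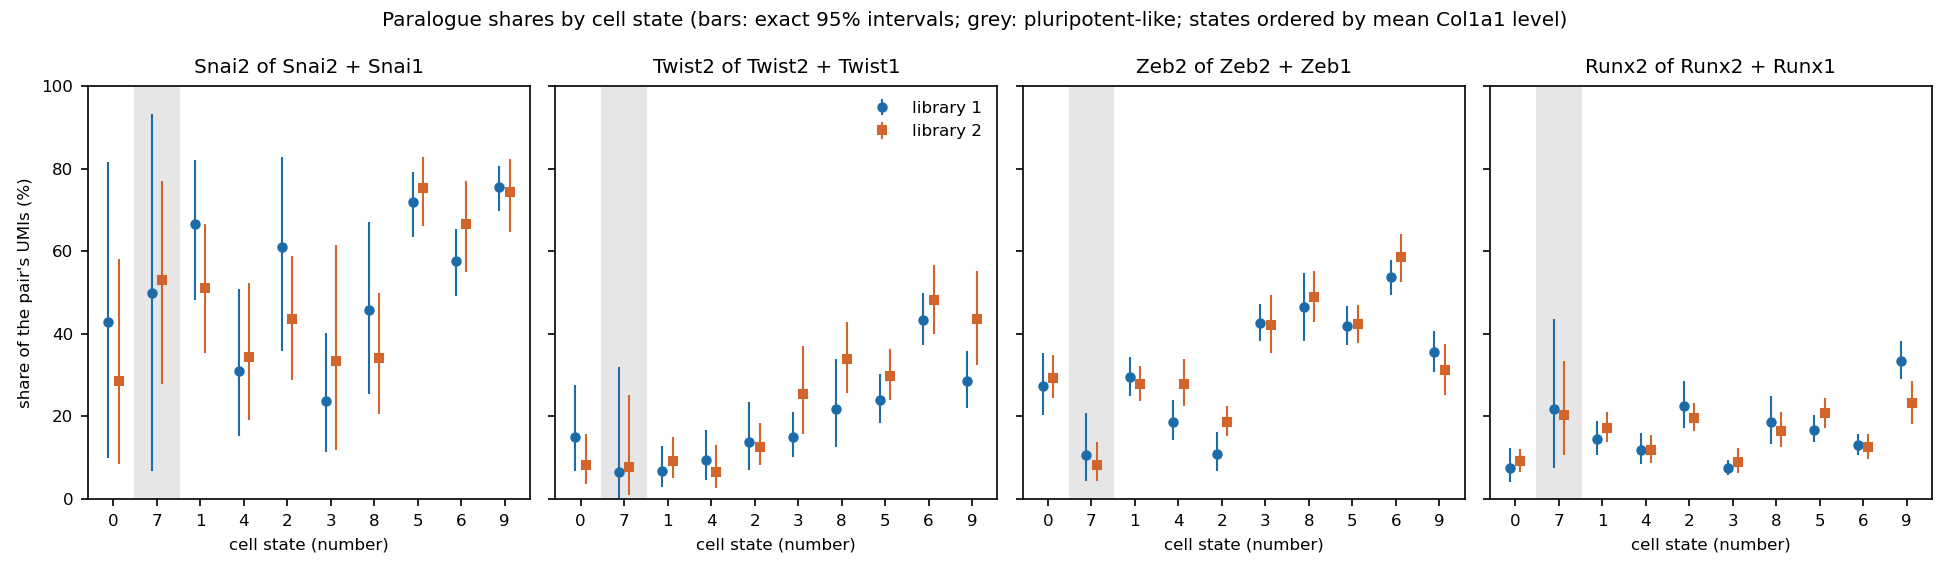
Each panel gives, on the vertical axis from 0 to 100%, the share of a paralogue pair's UMIs that came from the second gene (Snai2, Twist2, Zeb2 or Runx2) in each cell state, with states ordered from low to high mean Col1a1 level; circles are library 1, squares library 2, bars exact 95% intervals for counting error, and the pluripotent-like state is shaded. The Zeb2 share runs from 10.8% and 8.16% in pluripotent-like cells to 53.7% and 58.5% in state 6, and the Runx2 share is highest in state 9.

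Small states added to the Zeb2 picture. State 12, which had no type name, held 15 and 1 cells, and there Zeb2 had 57 of 62 ZEB UMIs in library 1 at a mean of 4.18 per 10000. The macrophage-like state 13 (4 and 9 cells, 7 of 7 markers) had Zeb2 at 2.16 and 2.52 with 8 and 19 UMIs, and no Zeb1 UMI in 38306 and 84340 UMIs. Without states 12 and 13 in the comparison group, a setting chosen after the data were seen, 7 members were still called lower in pluripotent-like cells, 6 of them by 2-fold. The shares of all genes called in that setting are not given.

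States 0 and 4 are described further, and were singled out after their values were seen. State 0, led by Acsbg1, Cib2 and Dmrtc2, had Col1a1 at 0.383 and 0.217 per 10000, below the pluripotent-like 0.612 and 0.355 of the same libraries. Its summed Col1a1 level was 0.572 times (95% interval 0.465 to 0.700) and 0.614 times (0.514 to 0.733) the pluripotent-like one. Yet Runx1 was 8.97 times (5.50 to 15.5) and 10.4 times (7.60 to 14.6) the pluripotent-like level, Prrx1 5.89 times (3.73 to 9.72) and 7.69 times (5.86 to 10.3), Zeb2 5.69 times and 8.54 times, and Twist1 3.20 times and 4.04 times. Tcf4 stood at 1.81 and 1.45 per 10000 in state 0 and Zeb1 at 0.271 and 0.248.

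Not every member was kept in state 0. Snai2 had 3 and 4 UMIs there, 1.49 times (0.171 to 17.9) and 0.490 times (0.110 to 1.75) the pluripotent-like level, and Snai1 had 4 and 10, so that neither differed from the pluripotent-like cells beyond counting error. Pluripotency markers were not raised in state 0 (0 of 11), and fibroblast markers were not either (0 of 11). Cdh1 had 1 and 10 UMIs in its 294 and 703 cells.

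State 4 carried keratin 19 with little Cdh1. Its Col1a1 level, 0.906 and 0.624, was 1.52 times (1.32 to 1.76) and 2.08 times (1.81 to 2.39) the pluripotent-like one on summed UMIs. Krt19 was at 0.626 and 0.948 per 10000 there, while Cdh1 was at 0.00866 and 0.0104, against 0.326 and 0.436 in pluripotent-like cells. Prrx1 was at a mean of 0.809 and 0.926, and on summed UMIs it was 17.0 times the pluripotent-like level in both libraries. Runx1 was 8.58 times and 11.8 times that level, and Zeb1 2.24 times (1.67 to 3.04) in library 1. Snai2, at 2.59 times (0.537 to 24.7) and 2.02 times (0.780 to 5.42), did not differ from the pluripotent-like level beyond counting error. Mitotic cells of state 1 also had little Col1a1 (0.671 and 0.407) beside Prrx1 at 0.656 and 0.829.

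The epithelial-like state 10 had Cdh1 at 0.396 in the 63 cells of library 1, and its members differed from those of pluripotent-like cells in both directions. Zeb1 had 4 UMIs in 1467822, 0.199 times (0.0524 to 0.537) the pluripotent-like level of that library. Tcf4 was at 0.409 per 10000 on summed UMIs, 0.726 times (0.538 to 0.968). Runx1, with 23 UMIs, was 3.68 times (1.90 to 7.24) the pluripotent-like level and was the one member whose interval lay above 1 in library 1.

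Prrx1 in these cells (8 UMIs) was 1.05 times (0.403 to 2.44) the pluripotent-like level. Snai1, Snai2, Twist2, Zeb2 and Runx2 had no UMI in the state in library 1, which allows a level of up to 0.0204 per 10000 at 3 counts. Library 2 had 4 such cells, in which Runx1 (3 UMIs) was 7.16 times (1.42 to 22.4) the pluripotent-like level, and Tcf4 (13 UMIs) 2.92 times (1.54 to 5.05), on the other side of 1 from library 1. These intervals cover counting error within a library, and the state was formed from the same cells.

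Cdh1 as a marker of single epithelial cells gave few cells outside the pluripotent-like class. Cells with at least 2 Cdh1 UMIs numbered 18 in library 1 and 2 in library 2, of which 15 and 1 were in the epithelial-like state, and the fit took its spread wholly from all genes together. Prrx1 was at 0.0792 and 0 in them against 1.27 and 1.17 in cells without Cdh1, a log2 difference of -3.30 (SE 0.75, limma adjusted p 0.0019), and it was the one member called lower, against 1.6% of all genes. The other 6 tested members had log2 differences from -1.04 to -2.10 and limma adjusted p from 0.16 to 0.58. The median log2 difference of all tested genes in this comparison was -0.50. With at least 1 Cdh1 UMI the Prrx1 log2 difference was -1.09 (limma adjusted p 0.11) and no member was called, against 0.112% of all genes; without the epithelial-like cells it was -2.47 (limma adjusted p 0.60). The call was also lost without the library term, at either other pseudocount and at either other minimum level.

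Along Col1a1 within non-pluripotent cells the members separated by slope. Cells of each library were ordered by Col1a1 level and cut into quintiles, with 721 and 1560 cells without a Col1a1 UMI kept as a group of their own. Snai2 was 25.1 and 12.6 times higher in the top quintile than in cells without Col1a1, Twist2 6.45 and 8.61 times, and Runx2 6.11 and 3.07 times. Zeb1 was 1.80 and 1.63 times higher and Tcf4 1.53 and 1.26 times, so these were the flattest members in both libraries.

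Prrx1 went from 0.565 and 0.728 per 10000 in cells without Col1a1 to 2.44 and 2.21 in the top quintile and rose at every step in both libraries, as Twist1 and Runx2 did. In library 1 Snai1, Twist2, Zeb1, Zeb2, Tcf4 and Runx1 were lower in the second quintile than in cells without Col1a1, for example Zeb2 (0.0949 against 0.186) and Tcf4 (1.31 against 1.73). Those cells of the second quintile were the deepest of the library, with a median of 20391 UMIs against 15132. Depth and the Col1a1 group moved together there, and their parts were not tested.

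**Figure D4:**
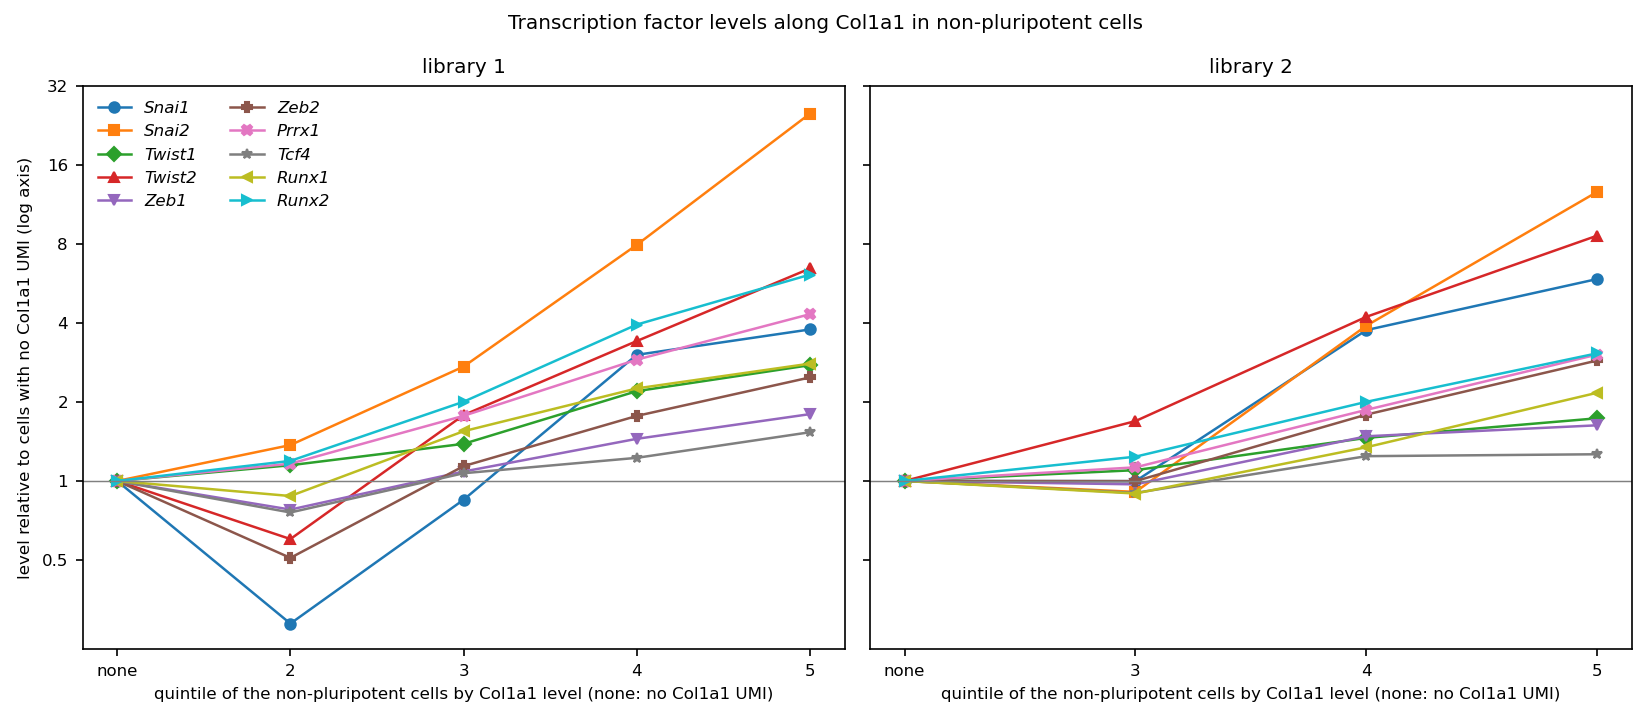
The vertical axis (logarithmic) is the level of each transcription factor relative to cells with no Col1a1 UMI, the horizontal axis the Col1a1 group of non-pluripotent cells from none to the top quintile, with library 1 on the left and library 2, where the lower quintiles had no Col1a1 UMI, on the right. Snai2 ends highest (25.1 and 12.6) and Tcf4 lowest (1.53 and 1.26).

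Of 20 listed partners and cofactors 16 were tested, and 8 were lower and 4 higher in pluripotent-like cells by limma adjusted p, near the 46.2% and 31.5% of all genes. By 2-fold as well 5 were lower and 3 higher, where 17.5% and 7.24% of all genes were. The falls were led by Id3 (log2 difference -2.74) and Id1 (-1.57), which bind E proteins and keep them from DNA. The rises were led by Hdac1 (log2 difference 1.33) and by Kdm1a, at 1.02 and 0.792 per 10000 in pluripotent-like cells against 0.364 and 0.308, enzymes of corepressor complexes that SNAIL proteins recruit.

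Another 3 partners were named after their values were seen, since each stands next to a member. Tcf12 and Tcf3 encode the other E proteins beside Tcf4, and Tcf12 fell by 1.49 on the log2 scale while Tcf3 stood at 0.10 with a limma adjusted p of 0.34. Cbfb, which encodes the shared partner subunit of RUNX proteins, fell by 0.61 (limma adjusted p 3.6e-04), less than Runx1.

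TGF-beta and BMP signalling induces several of the members in many cells, and the 23 genes listed for it included inhibitors. Of them 17 were tested, and 15 were lower and 1 higher by limma adjusted p, against 46.2% and 31.5% of all genes. The median log2 difference was -1.24, against -0.16 for all genes. Tgfbr2, a TGF-beta receptor, fell by 1.73 and Ltbp2, a matrix protein related to latent TGF-beta binding, by 1.67. The 1 gene that rose was Smad7, an inhibitor of the pathway, at 0.491 and 0.451 per 10000 in pluripotent-like cells against 0.182 and 0.179 (log2 difference 1.03). Ski and Skil, other inhibitors in the list, were named after their values were seen. Ski fell by 1.25 (limma adjusted p 2.0e-06) and Skil stood at -0.02 (limma adjusted p 0.91). Of the other mesenchymal-lineage transcription factors 35 were in the table, of which 15 were tested. All 15 were lower, 13 by 2-fold, against 46.2% and 17.5% of all genes, with a median of -1.70. Genes high only outside the pluripotent-like class can pass the minimum, while genes high only within it mostly cannot. The direction of such list counts thus depends in part on the filter, and the untested genes are not covered. Nfix fell by 3.13 and Ebf1 by 2.73.

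Listed mesenchymal target genes that passed the minimum, which favours genes high in other cells, were all lower, and epithelial ones went both ways. All 15 tested mesenchymal targets were lower, against 46.2% of all genes, and 14 by 2-fold, against 17.5%, with Tgfbi (-3.55) and Vim (-3.47) in the lead. Of 8 tested epithelial targets 5 were higher and 2 lower, against 31.5% and 46.2% of all genes. Spint2 (1.42) and Spint1 (1.08), inhibitors of membrane serine proteases, were the 2 higher by 2-fold as well, against 7.24% of all genes. The minimum is a mean over all cells, most of which are not pluripotent-like, so it left out some epithelial targets found almost only in pluripotent-like cells. Crb3, a polarity gene named after its values were seen, was at 0.173 and 0.285 per 10000 there against 0.0117 and 0.00381 and was not tested. Klf5, the 1 tested gene among the 14 epithelial transcription factors and splicing regulators found, was at 1.68 and 1.70 per 10000 in pluripotent-like cells against 0.0649 and 0.0771, a log2 difference of 3.39. Of the RUNX2 targets 3 were tested, with Mmp13 at -2.07, Col10a1 at -1.15 and Spp1 at -0.09 (limma adjusted p 0.66).

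The E-box that SNAIL and ZEB proteins bind, CAGGTG or CACCTG on the other strand, was searched in the 250 bases before each start site in the RefSeq promoters (GRCm38.p6). It occurred in 19.4% of 27025 genes and 17.2% of windows. Of the epithelial targets with a promoter entry 7 of 15 held it, of the mesenchymal targets 0 of 8, and of the members 2 of 7, Snai1 and Runx1. The sequences of Spint2, the tested epithelial target with the largest rise, and of Snai1 are shown 5′ to 3′ with each E-box in capitals, since one holds 3 boxes and the other is a member that holds its own family's box. The Spint2 window is chr7:29281978-29282227 on the minus strand and the Snai1 window chr2:167537945-167538194 on the plus strand, both upstream of the start.
Spint2: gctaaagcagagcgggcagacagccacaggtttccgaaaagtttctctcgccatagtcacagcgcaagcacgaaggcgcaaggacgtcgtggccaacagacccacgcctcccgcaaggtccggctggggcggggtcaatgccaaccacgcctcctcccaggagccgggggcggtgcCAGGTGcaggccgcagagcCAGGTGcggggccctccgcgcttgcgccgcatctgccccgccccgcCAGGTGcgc
Snai1: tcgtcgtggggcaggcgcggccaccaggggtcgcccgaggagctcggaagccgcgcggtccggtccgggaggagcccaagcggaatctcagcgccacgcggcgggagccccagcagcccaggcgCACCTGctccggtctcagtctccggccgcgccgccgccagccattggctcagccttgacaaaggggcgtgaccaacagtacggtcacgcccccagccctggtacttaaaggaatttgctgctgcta
The boxes of Spint2 begin 74, 55 and 9 bases before its start site, and that of Snai1 126 bases before. Spint2 stood at 1.16 and 1.32 per 10000 in pluripotent-like cells against 0.386 and 0.416 elsewhere, whereas Snai1 was at 0.00585 and 0.00717 against 0.0545 and 0.0402. A match is a description of letters and not a binding site.

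Genes with state patterns most like each member were found by the Pearson correlation of log2(level + 0.1) over the 10 larger states, within each library, taking the lower of both. Prrx1 was most like Adam10 (0.986), Ddr2 and Mgat1. Runx1 was most like Sspn (0.982), Emp1 and Itgb5, and Twist2 like Svep1 (0.978), Fgf7 and Itga11. Runx2 was most like Zcchc24 (0.980), Egfr and Prrx2, and Zeb1 like Rgs3 (0.964), Ltbp3 and Hif1a.

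The rest had slightly lower values. Snai2 was most like Atp2b1 (0.958), Ssr1 and Cthrc1, Twist1 like Epb41l3 (0.955), 9530068E07Rik and Antxr1, and Snai1 like S1pr3 (0.953), Tnfaip2 and Tgfbr3. Tcf4 was most like Airn (0.949), 5031425E22Rik and Mgp, and Zeb2 like Chst15 (0.947), Ebf1 and Aak1. States of a library share their depth and cells, so these values are descriptions.

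For some pairs of members the likeness depended on the pluripotent-like state, and for others it changed little or rose without that state. Over the 10 states Tcf4 and Runx1 had a correlation of 0.697 and 0.712, and over the 9 states without the pluripotent-like one 0.286 and 0.229. Tcf4 and Zeb2 went from 0.519 and 0.621 to 0.214 and 0.266. Zeb1 and Runx2 were at 0.927 and 0.936 with the pluripotent-like state and at 0.961 and 0.899 without it. Snai1 and Prrx1 went from 0.822 and 0.809 to 0.897 and 0.899. Prrx1 and the reference Col1a1 went from 0.838 and 0.794 to 0.943 and 0.940.

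Over all cells every member was slightly lower in library 2. The log2 ratios of library 2 over library 1, on level + 0.1, lay between -0.34 (Snai2) and -0.09 (Twist2), within the -0.45 to 0.25 that held 95% of all tested genes. With equal weight to each of the 10 larger states they lay between -0.21 and 0.06, with Twist2, Prrx1 and Runx1 above 0. Col1a1 was lower by more, at -1.02 over all cells and -0.47 with equal weights, and the pluripotent-like state made up 4.70% of library 1 and 9.99% of library 2. The STEMCCA system and the library cannot be told apart.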

How the data were processed

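Per the study's methods and the submitters' notes, 10x Chromium V2 libraries were processed with Cell Ranger 2.1.1 (mm10) and Seurat, keeping cells with over 1500 and under 6000 genes and under 9% mitochondrial RNA. The authors deposited natural log values, ln(1 + UMIs per 10000). Whole UMIs were recovered for 100.0% of values within 0.01, and a cell's level is its UMIs per 10000. Cells were clustered with scanpy 1.11.5 and leidenalg 0.10.2 (2000 variable genes, 30 components, 15 neighbours, resolution 1) after 751 genes, the members and all listed genes among them, were held out; a state took a type's name where at least 3 and 50% of its fixed markers were raised 2-fold and its 10 leading genes held no more markers of another type. No doublet caller was run. Because the deposited unit is a log value, limma 3.58.1 was used, on 1 profile per class and library, with genes of mean 0.1 or more, a library term and a threshold of 0.05; on simulated data 99.5% of 200 genes changed 4-fold among 7131 were recovered, and 6.13% of calls were unchanged genes. Nothing in the labels says the libraries are separate cultures, so p-values measure the spread between 2 libraries. With 4 profiles, most of the 8.78 degrees of freedom behind each p of the main comparison came from the spread shared across genes. The degrees of freedom were 32.7 against fibroblast-like cells, 2.62 with no minimum level and 7131 for cells with at least 2 Cdh1 UMIs. An exact sign-flip test over the 2 libraries cannot go below 0.5. Named genes were all members and references, per list up to 2 rises and 2 falls past 2-fold, and per member the 3 most alike genes. Members and lists were chosen with earlier results of these data known. Gene positions are from GENCODE M21 (GRCm38). Alternatives covered clustering, comparison cells, pseudocount, minimum level, depth and the library term.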

Additional observations from a re-analysis of the deposited data

How the results depend on the processing

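All named members kept their direction under every alternative run, and none reversed. Of the 7 members called lower in pluripotent-like cells, a minimum mean of 0.5 left 3 to test and all 3 were called, with 2-fold as well, and a pseudocount of 1 left 1 past 2-fold. In 1 library alone, which leaves no residual degrees of freedom for a test, 6 to 7 members were at least 2-fold lower. The same range held for Cdh1-positive cells, where the median of all tested genes over both libraries was itself -0.50. The shares of all genes 2-fold lower in 1 library are not given. Leaving out the library term (no replicate block) gave 7 and 6 members, as with it; for the Cdh1-positive cells it gave 0, as did at least 1 Cdh1 UMI, no epithelial-like cells, pseudocounts of 0.01 and 1, no minimum and a minimum of 0.5, where Prrx1 had limma adjusted p from 0.11 to 0.66. The cause was not tested. With a pseudocount of 1, genes past 2-fold fell to 8 mesenchymal targets, 2 other mesenchymal factors and 0 epithelial targets. Epithelial targets higher by 2-fold numbered 5 against fibroblast-like cells and 4 with no minimum, where epithelial factors numbered 3. Apart from those stated above, the shares of all genes called or past 2-fold in the same direction under the alternative settings are not given. Taken alone, library 1 gave 8 and library 2 gave 10 members the same highest state as their mean. Depth limits Snai1, Snai2 and Twist2 in pluripotent-like cells, at 1 to 9 UMIs per library, and 18 and 2 cells limit the Cdh1 comparison.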
